A study of Mus musculus with 6 samples.

Results

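The 10 genes described here are feedback genes of the RAS-ERK pathway: the dual-specificity phosphatases Dusp1, Dusp4, Dusp5 and Dusp6, the Sproutys Spry1, Spry2 and Spry4, the Spreds Spred1 and Spred2, and the immediate early gene Ier3. They are 10 of the 24940 genes in the deposited table and were taken by gene symbol. The group was chosen by a measured value, since it was put together because Dusp6 was higher in the OCA+VIP libraries, so the differences of these genes between the groups are a description and support no claim. The cells were primary hepatic stellate cells, which store vitamin A and line the liver sinusoid, from wild-type female C57BL/6JBomTac mice. At 2 days after isolation they were given 10 µM obeticholic acid (OCA), a bile acid derivative and agonist of the nuclear receptor FXR, or the DMSO vehicle. After 3 h, 500 nM vasoactive intestinal peptide (VIP), whose receptors raise cAMP, was added to both groups for a further 3 h. Each group, DMSO+VIP and OCA+VIP, had 3 libraries, and all 6 received VIP, so the comparison is of OCA with vehicle in VIP-treated cultured cells and not of VIP with no VIP. No label ties the libraries to different mice or dishes, so p-values cover the variation among these 6 samples alone, and part or all of it may be technical.

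Growth factor receptors switch on RAS, which passes the signal through RAF and MEK to the kinases ERK1 and ERK2. ERK in turn induces these genes, most of which encode inhibitors of the pathway, so the RNA of these genes is widely used as a readout of recent pathway activity. The phosphatases remove the activating phosphates from ERK, p38 or JNK, Sproutys act between receptors and RAF, and Spreds bring the RAS inactivator neurofibromin to the membrane. In stellate cells, PDGF and other growth factors use this pathway to drive proliferation. Several of these genes, Dusp1 above all, can also be induced through cAMP.

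The sequences before the transcription starts were searched for exact letter matches to elements through which cAMP, serum and other signals act. Windows of 250 bases before the start were found in RefSeq (GRCm38.p6) for 8 of the 10 genes, and Dusp4 and Spry4 had no entry. Both strands were searched for the cAMP response element, with the letters TGACGTCA, and for its half-site, TGACG, which also lies inside the full element. The other motifs were the CArG box of the serum response element, the ETS site spelled CCGGAA, the AP-1 site spelled TGANTCA, the EGR site spelled GCGTGGG, the TATA box as TATAAA, and AGGTCA, a half-site of nuclear receptors. The windows of Dusp1, Dusp5 and Dusp6 are shown because these genes have the highest level of the group, a pair of CArG boxes and the largest difference between the groups. Each runs 5′ to 3′ on the gene's strand with matches in capitals. They lie at chr17:26508473-26508722 on the minus strand, chr19:53528895-53529144 on the plus strand and chr10:99262981-99263230 on the plus strand, in that order.
Dusp1: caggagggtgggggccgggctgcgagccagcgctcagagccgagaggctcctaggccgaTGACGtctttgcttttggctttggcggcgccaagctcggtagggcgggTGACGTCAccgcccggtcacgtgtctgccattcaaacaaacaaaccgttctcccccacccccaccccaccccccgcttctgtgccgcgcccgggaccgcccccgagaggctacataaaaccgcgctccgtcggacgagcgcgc
Dusp5: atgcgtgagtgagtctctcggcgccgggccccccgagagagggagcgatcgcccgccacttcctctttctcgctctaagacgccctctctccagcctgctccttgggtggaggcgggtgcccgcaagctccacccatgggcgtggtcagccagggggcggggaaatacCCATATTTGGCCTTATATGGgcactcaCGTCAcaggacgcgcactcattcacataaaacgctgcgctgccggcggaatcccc
Dusp6: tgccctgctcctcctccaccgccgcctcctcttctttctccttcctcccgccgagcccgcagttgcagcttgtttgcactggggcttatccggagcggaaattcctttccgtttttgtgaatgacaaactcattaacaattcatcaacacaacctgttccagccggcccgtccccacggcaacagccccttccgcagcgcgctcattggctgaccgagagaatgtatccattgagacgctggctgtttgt

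In Dusp1 the capitals mark a half-site at positions -191 to -187 from the start and a full cAMP response element at -143 to -136. The full element is found in 1.55% of the 32851 promoter windows in the table and in 1 of the 8 windows of this group. In Dusp5 they mark 2 adjoining CArG boxes, at -82 to -73 and -72 to -63, and a half-site at -55 to -51. A CArG box is found in 1.47% of all windows, and a half-site in 17.8%. Spred2 has a half-site at -51 to -47. The Dusp6 window holds none of these motifs, nor do those of Spry1, Spry2, Spred1 and Ier3. The bases just after the Spred1 start were not found in a GENCODE transcript of that gene, unlike those of the other windows. The Spred1 window does end directly before the counted transcript. The Dusp5 window ends at 53529144, before the start of the counted transcript at 53529318 and past the GENCODE gene start at 53529109. The starts of Spred1 and Dusp5 are thus less certain, and the Dusp5 positions hold for the start of its window alone. ETS, AP-1, EGR, TATA and nuclear receptor matches, present in 12.0%, 6.75%, 4.30%, 12.4% and 14.0% of all windows, occur in 0 of the 8. These are matches of exact letters in a short window. Other spellings of these sites, which the windows may hold, were not searched, and nothing is said of sites elsewhere.

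**Figure D1:**
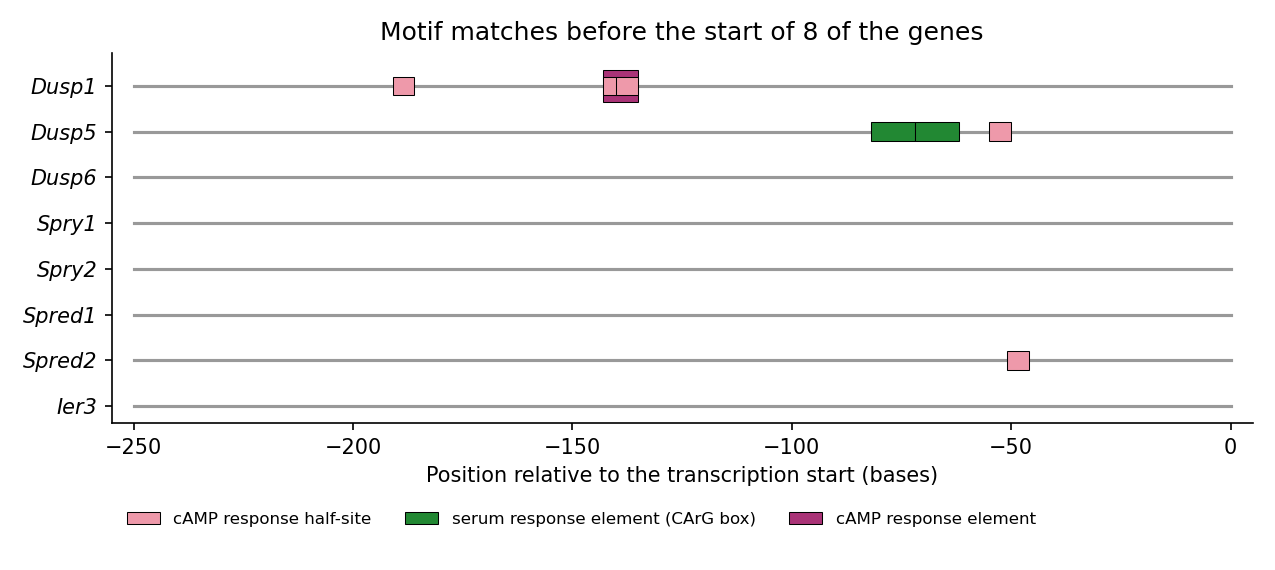
Motif matches in the 250 bases before the transcription start (x axis, bases from the start) of the 8 genes with a RefSeq window. Boxes stand for matches on either strand. Dusp1 has 1 full cAMP response element, Dusp5 has 2 adjoining CArG boxes, and the Dusp6 line is empty.

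The DMSO+VIP columns summed to between 2.84e+06 and 4.57e+06 counts, and the OCA+VIP columns to between 4.53e+06 and 9.95e+06. All 10 stellate cell markers on a list of 10 had counts, and their summed level was 642 to 845 CPM (counts-per-million of the column total) with DMSO+VIP and 692 to 793 CPM with OCA+VIP. Within that list Ngfr, Dcn and Colec11 rose, Colec11 from 6.97 to 31.5 CPM, and Des and Hgf fell, Hgf from 47.7 to 11.1 CPM, while Reln, the most abundant, did not pass. Of 10 hepatocyte markers, 8 had counts and all 8 rose with OCA, while Tat and Cps1 were at 0 in every library. Their sum was 69.7 to 76.9 CPM with DMSO+VIP and 231 to 384 CPM with OCA+VIP, highest in OCA+VIP library 1. The summed macrophage markers were at 15.3 to 40.7 and 31.0 to 42.5 CPM, with C1qa and Ptprc at 0, and the endothelial markers at 17.3 to 35.9 and 14.1 to 24.2 CPM, with Lyve1 at 0. Of the 2 endothelial markers tested, Egfl7 fell, from 25.5 to 10.8 CPM, and Pecam1 went from 1.14 to 4.23 CPM but did not pass. Egfl7 held most of the endothelial sum with DMSO+VIP. Cd68, at means of 20.5 and 30.6 CPM, was the most abundant macrophage marker in every library and did not pass. The sum of 4 cholangiocyte markers was 2.29 to 13.3 and 12.4 to 15.9 CPM, with Krt7 at 0. Of the 4 lymphocyte markers Cd79a had counts and rose, at 3.67 to 8.35 CPM with OCA+VIP and at 0 with DMSO+VIP. The 4 mesothelial and portal fibroblast markers reached 0.656 CPM at most. The part of other cells in the results below was not tested, and in bulk RNA fewer cells with a transcript and less of it per cell cannot be told apart.

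Dusp6 was the 1 gene of the 10 that passed the test across all genes. All 10 passed the filter on low counts, and 1 rose, 0 fell and 9 did not pass (quasi-likelihood F test of edgeR at a false discovery rate of 0.05 over 11286 genes). Across all tested genes 5.72% rose, 6.04% fell and 11.8% were called in either direction. The median log2 fold change was 0.25 for the 10 genes and 0.001 for all tested genes, and 7 of the 10 values were positive. In CPM, the 3 OCA+VIP libraries all lay above the 3 DMSO+VIP libraries for Dusp4, Dusp6, Spry1, Spry4 and Spred2, and all below them for Dusp1. That is 5 and 1 of the 10 genes, beside 16.8% and 13.9% of all tested genes. Because the group was put together from this contrast, nothing is read from these counts.

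**Figure D2:**
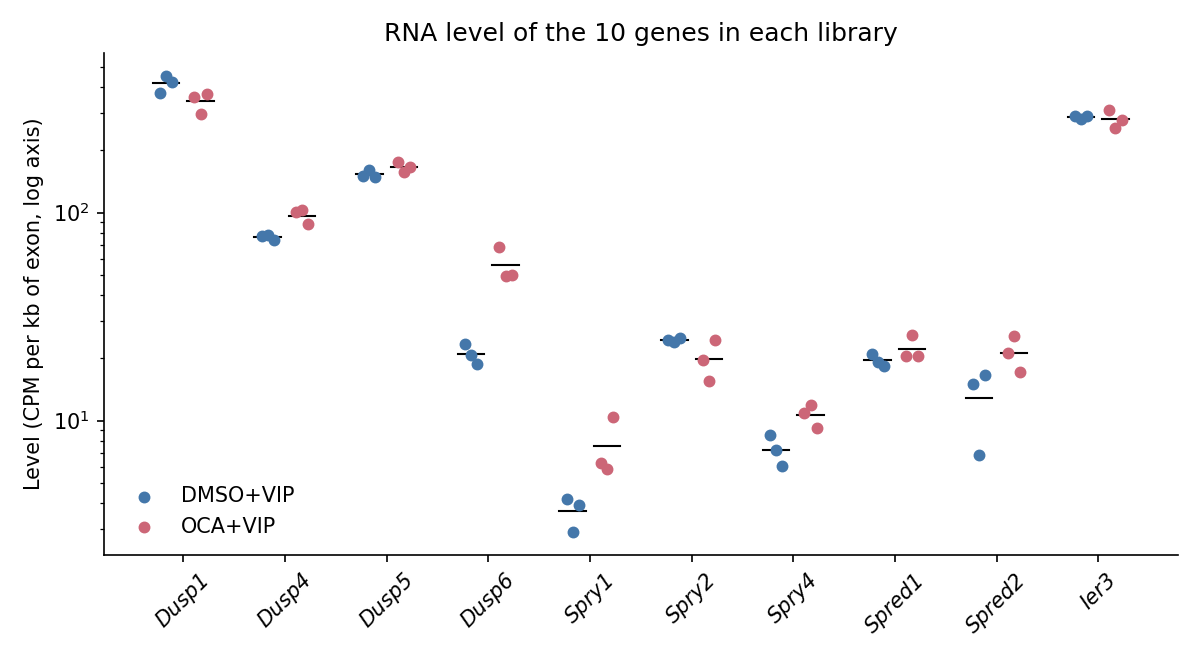
RNA level of each of the 10 genes in each library, in CPM per kilobase of exon on a log axis; points are libraries and bars are group means (n = 3). Dusp6 is at 18.8 to 23.3 in the DMSO+VIP libraries and at 49.6 to 68.7 in the OCA+VIP libraries. The points of Dusp5, Spry2, Spred1 and Ier3 overlap between the groups.

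Dusp6 (MKP-3; chromosome 10, 99263231 to 99267489, mm10) encodes a phosphatase of the cytoplasm that is selective for ERK and is a textbook target of the pathway it inhibits. Its level was 65.0, 57.6 and 52.4 CPM in DMSO+VIP libraries 1 to 3 and 192, 138 and 140 CPM in OCA+VIP libraries 1 to 3. The lowest OCA+VIP library was more than the highest DMSO+VIP library by a wide margin, and OCA+VIP library 1 stood above the other two. The means were 58.3 ± 6.37 and 157 ± 30.3 CPM (SD, n = 3), and the fitted log2 fold change was 1.41 (SE 0.16), the value on which the group was chosen. Its rank by log2 fold change was 210 among the 11286 tested genes, counted from the largest rise. With any 1 library left out the log2 fold change of Dusp6 was 1.20 to 1.53, lowest without OCA+VIP library 1. The hepatocyte marker sum was 384, 231 and 330 CPM in OCA+VIP libraries 1 to 3, and a link between it and Dusp6 was not tested.

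Dusp1 (MKP-1), which encodes a nuclear phosphatase that acts on p38 and JNK as well as ERK, was the most abundant of the group. It lies at chromosome 17, 26505591 to 26508472. The libraries gave 724, 880 and 821 CPM with DMSO+VIP and 698, 579 and 717 CPM with OCA+VIP. Every OCA+VIP value was below every DMSO+VIP value, but OCA+VIP libraries 1 and 3 came close to DMSO+VIP library 1. The log2 fold change was -0.29 (SE 0.14), which did not pass the test. It was -0.17 without OCA+VIP library 2, the deepest library. With DMSO+VIP, 0.833% of the tested genes had a higher CPM than Dusp1.

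Dusp4 (MKP-2; chromosome 8, 34807610 to 34819894), a nuclear phosphatase for ERK and JNK, had 187, 189 and 178 CPM with DMSO+VIP and 242, 248 and 213 CPM with OCA+VIP. The groups did not overlap, the DMSO+VIP libraries lay within 11.1 CPM of each other, and the log2 fold change of 0.33 (SE 0.12) did not pass. Scaling to the column totals, without TMM factors, would bring this gene past the threshold at a log2 fold change of 0.35. Dusp5 (chromosome 19, 53529318 to 53541322), a nuclear phosphatase selective for ERK, had 172, 185 and 171 CPM with DMSO+VIP and 201, 181 and 191 CPM with OCA+VIP. These values overlapped, with a log2 fold change of 0.11 (SE 0.12), or 0.03 without OCA+VIP library 1 and 0.18 without library 2 of that group. An antisense gene shares 22.1% of the exon bases of Dusp5, and strand use in the counting is not given in the sources used here.

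The summed level of the 4 phosphatase genes per length was nearly the same in both groups, and its make-up differed. The sum was 668 ± 44.8 CPM per kilobase with DMSO+VIP and 663 ± 48.9 with OCA+VIP (SD, n = 3). Dusp1 made up 59.9%, 63.7% and 63.8% of it in the DMSO+VIP libraries and 51.2%, 49.2% and 54.9% in the OCA+VIP libraries. The share of Dusp6 was 3.73%, 2.89% and 2.82% with DMSO+VIP and 9.75%, 8.14% and 7.45% with OCA+VIP. Within a library the ratio of Dusp6 to Dusp1 per kilobase was 0.0506 ± 0.0101 with DMSO+VIP and 0.164 ± 0.0274 with OCA+VIP, without overlap. The ratios of Dusp6 to Dusp4 (0.274 ± 0.0244 and 0.580 ± 0.101) and of Dusp6 to Dusp5 (0.137 ± 0.0165 and 0.337 ± 0.0491) did not overlap either. Shares and ratios depend on each other and on the Dusp6 values that chose the group, and no test of the difference between Dusp6 and the other phosphatases was made.

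**Figure D3:**
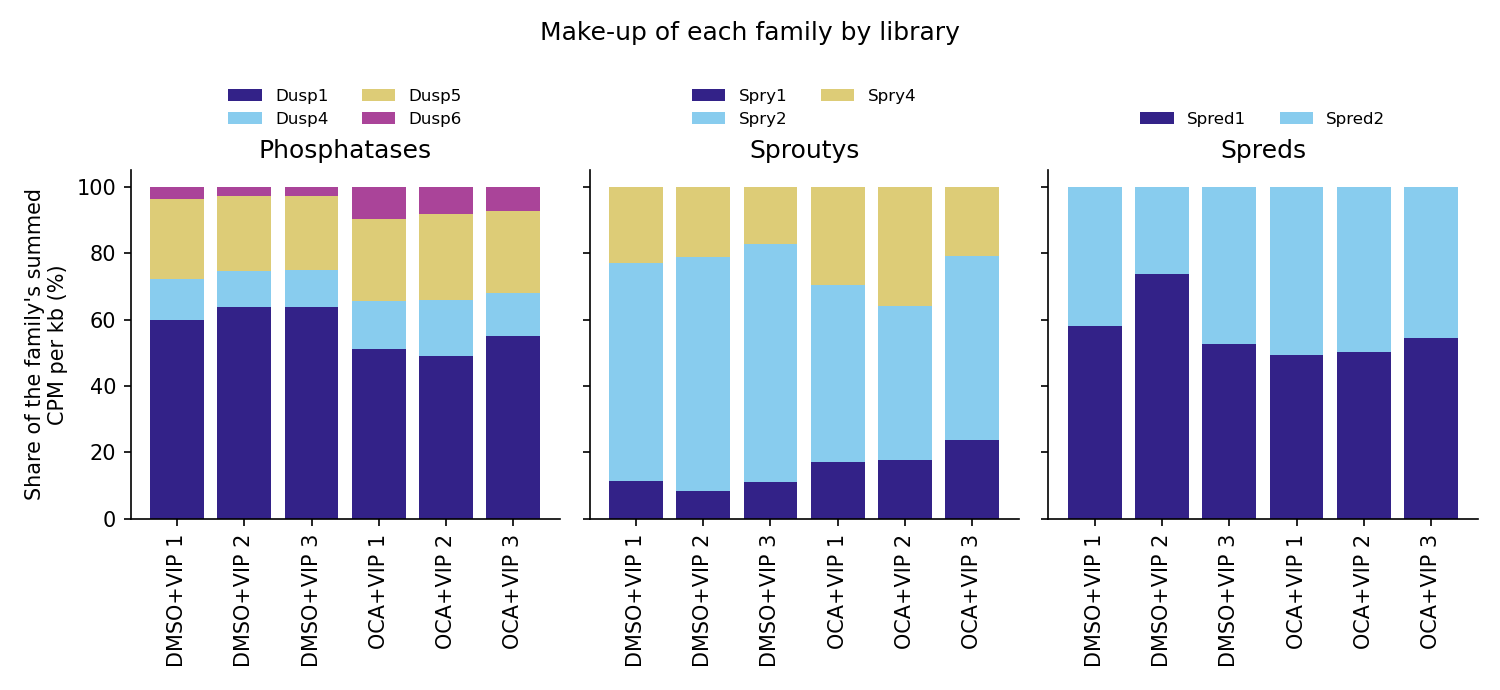
Share of each gene in the summed CPM per kilobase of its family (y axis, %) in each of the 6 libraries (x axis). In the phosphatase panel Dusp6 takes 2.82% to 3.73% with DMSO+VIP and 7.45% to 9.75% with OCA+VIP, and in the Sprouty panel Spry2 takes 65.6% to 71.5% and 46.6% to 55.4%.

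The 3 Sprouty genes had log2 fold changes of both signs, and none passed the test. Spry4 (chromosome 18, 38586265 to 38601268) encodes an inhibitor of growth factor signalling to RAS and RAF. It had 39.1, 33.1 and 27.7 CPM with DMSO+VIP and 49.7, 54.7 and 42.4 CPM with OCA+VIP, higher in every OCA+VIP library, with a log2 fold change of 0.53 (SE 0.20). Spry1 (chromosome 3, 37639947 to 37644599), an inhibitor known from kidney development where it limits GDNF-RET signalling, was the least abundant of the group. Its counts were 48, 20.5 and 36.5 in the DMSO+VIP libraries and 71, 145 and 151 in the OCA+VIP libraries. In CPM these were 10.5, 7.22 and 9.78 against 15.7, 14.6 and 26.01. OCA+VIP library 3 stood above the other two. The log2 fold change of Spry1 was 1.02 (SE 0.37), the widest error of the 10, and 0.71 without OCA+VIP library 3. A predicted gene on the opposite strand shares 24.4% of its exon bases.

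Spry2 (chromosome 14, 105891947 to 105896819), which binds GRB2 and the ubiquitin ligase CBL, had 50.6, 50.02 and 52.2 CPM with DMSO+VIP and 40.6, 32.4 and 50.9 CPM with OCA+VIP. The DMSO+VIP libraries were tight, OCA+VIP library 3 lay among them, and the other OCA+VIP libraries were lower (log2 fold change -0.32, SE 0.20). Its log2 fold change was -0.13 without OCA+VIP library 2 and -0.50 when library 3 of that group was left out. Spry2 held 65.6%, 70.3% and 71.5% of the summed Sprouty level per kilobase with DMSO+VIP and 53.2%, 46.6% and 55.4% with OCA+VIP. The sum itself was 35.4 ± 1.49 and 38.03 ± 5.54 CPM per kilobase. The ratio of Spry1 to Spry2 per kilobase was 0.150 ± 0.0269 with DMSO+VIP and 0.376 ± 0.0524 with OCA+VIP. That of Spry4 to Spry2 was 0.298 ± 0.0551 and 0.568 ± 0.195, and neither ratio overlapped between the groups. Both ratios set a Sprouty with a positive log2 fold change over Spry2, whose own was negative, which favours such a gap. No test of these ratios was made.

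Spred2 (chromosome 11, 19924442 to 20022597) had 43.2, 19.5 and 47.4 CPM with DMSO+VIP and 60.4, 73.1 and 49.0 CPM with OCA+VIP. The groups did not overlap, but DMSO+VIP library 3 and OCA+VIP library 3 were close, and DMSO+VIP library 2 was far below the rest. The log2 fold change was 0.69 (SE 0.24), with 0.41 when DMSO+VIP library 2 was left out and 0.90 when library 3 of that group was. The gene did not pass with all 6 libraries and passed without DMSO+VIP library 3. Spred1 (chromosome 2, 117121071 to 117182277), the gene mutated in Legius syndrome, had 132, 121 and 116 CPM with DMSO+VIP and 129, 163 and 129 CPM with OCA+VIP. Its groups overlapped, with a log2 fold change of 0.17 (SE 0.13), or 0.09 without OCA+VIP library 2. Per kilobase, Spred2 stood at 0.721, 0.355 and 0.901 of the Spred1 level with DMSO+VIP and at 1.03, 0.989 and 0.837 with OCA+VIP, and these ratios overlapped.

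Ier3 (IEX-1; chromosome 17, 35821713 to 35822911), an early response gene whose product binds ERK and prolongs its activity, had 318, 308 and 316 CPM with DMSO+VIP and 340, 278 and 304 CPM with OCA+VIP. The groups overlapped, with OCA+VIP libraries both highest and lowest, and the log2 fold change was -0.04 (SE 0.13). It turned to 0.06 without OCA+VIP library 2 and was -0.15 without OCA+VIP library 1.

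**Figure D4:**
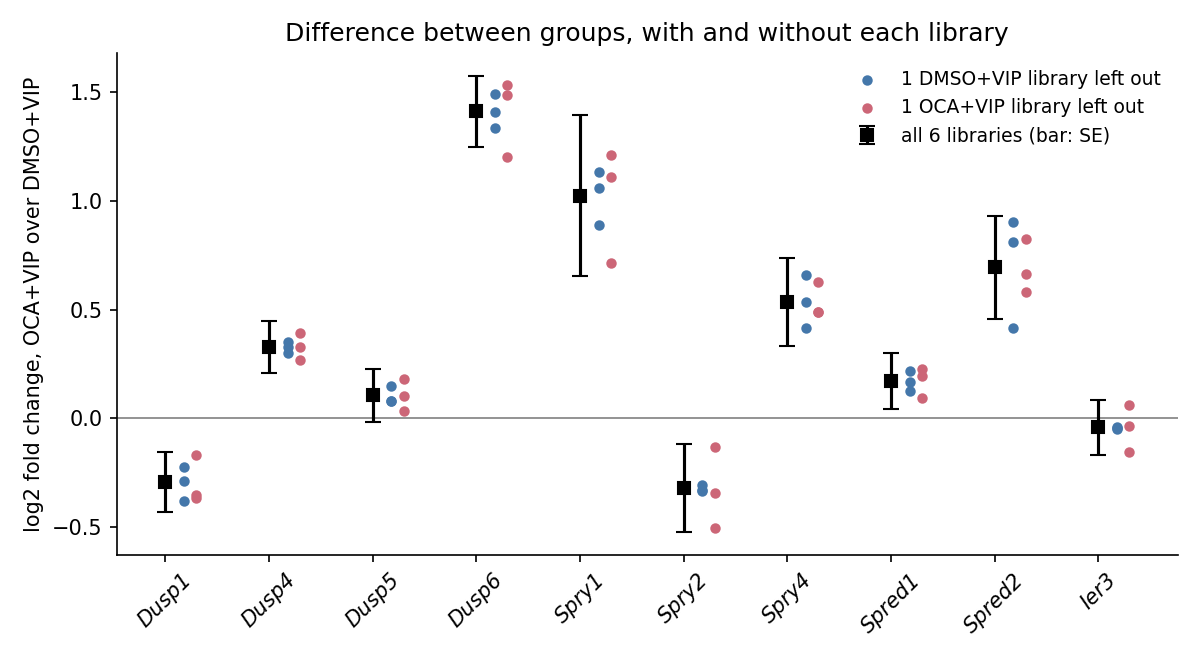
log2 fold change of OCA+VIP over DMSO+VIP (y axis) for each of the 10 genes. Squares with bars are the fit with all 6 libraries and its SE, and coloured points are fits with 1 library left out. Dusp6 stays between 1.20 and 1.53, while Spred2 ranges from 0.41 to 0.90 and Ier3 has points on both sides of 0.

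Set in order of level per kilobase of exon, the 10 genes spanned a wide range. With DMSO+VIP the order of mean CPM per kilobase was Dusp1 (418), Ier3 (289), Dusp5 (153), Dusp4 (76.3), Spry2 (24.5), Dusp6 (20.9), Spred1 (19.5), Spred2 (12.8), Spry4 (7.27) and Spry1 (3.68). Among neighbours in this order, the ranges over 3 libraries overlapped for Dusp6 with Spred1 and for Spred2 with Spry4. With OCA+VIP Dusp6 was at 56.2 ± 10.8 CPM per kilobase, rank 5 behind Dusp4 (96.9 ± 7.78) and ahead of Spred1 (22.2 ± 3.09), with no overlap to either. Spry2 went from rank 5 to rank 8 (19.8 ± 4.46), in a run with Spred1 and Spred2 whose ranges overlapped. The ranges of Dusp1 and Ier3 overlapped with OCA+VIP and did not with DMSO+VIP. The spread within groups differed among the genes, from a coefficient of variation of 1.67% for Ier3 to 40.9% for Spred2 with DMSO+VIP, and from 5.22% for Dusp5 to 33.7% for Spry1 with OCA+VIP.

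The genes whose pattern over the 6 libraries was most like that of Dusp6 were Dap, Ereg, Rbm18, Ppm1g and Prr14 (r = 0.997 for each). Likeness was the Pearson correlation of log2 CPM among 8784 genes with a mean of at least 10 CPM. For the correlation, CPM was scaled with TMM factors and 0.5 was added. Ereg encodes the EGF family ligand epiregulin and went from 166 ± 8.13 to 341 ± 39.2 CPM. For Spry4 the 5 nearest were Ap1b1, Map3k3, Lrrc42, Lpar6 and Brpf1 (r = 0.990 to 0.993). The 6 points of each correlation share the difference between the groups and the library totals, so these values are a description.

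Of 18 other feedback inhibitors of the pathway in a further list, 17 were tested, 2 rose, 1 fell and 14 did not pass, with a median log2 fold change of 0.19. Over all tested genes 5.72% rose and 6.04% fell. Errfi1, which encodes the EGF receptor inhibitor MIG6, had 119, 102 and 95.6 CPM with DMSO+VIP and 283, 229 and 260 CPM with OCA+VIP. All OCA+VIP libraries were far above the others, with a log2 fold change of 1.27 (SE 0.14 and adjusted p = 1.9e-06 in edgeR). The phosphatase genes Dusp16 and Dusp8, whose products prefer JNK and p38, went opposite ways. Dusp16 rose from 64.4 ± 5.03 to 91.8 ± 10.0 CPM (log2 fold change 0.49 with SE 0.15, adjusted p = 0.0339 in edgeR). The call of Dusp16 was lost without any 1 of the 6 libraries (edgeR adjusted p from 0.0533 to 0.112). Dusp8 fell from 36.1 ± 5.06 to 18.3 ± 3.12 CPM (log2 fold change -0.99 with SE 0.25, adjusted p = 0.00994 in edgeR). Without DMSO+VIP library 2 or OCA+VIP library 1 the edgeR adjusted p of Dusp8 was 0.0508 or 0.0515. Dusp7 and Dusp9, the closest relatives of Dusp6, did not pass, with log2 fold changes of 0.10 (SE 0.25) and 1.11 (SE 0.81), and Spry3 had no counts. Dusp7, Dusp9 and Spry3 were chosen for mention after their values were seen.

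Of 21 genes of the cascade from adaptor proteins to ERK and its RSK kinases, 20 were tested, 1 rose, 3 fell and 16 did not pass, beside 11.8% called in either direction over all tested genes. The median log2 fold change of the list was 0.09. Mapk3, encoding ERK1, had 92.7, 86.5 and 70.1 CPM with DMSO+VIP and 42.9, 65.9 and 48.8 CPM with OCA+VIP, and the groups did not overlap. It fell, with a log2 fold change of -0.68 (SE 0.17 and adjusted p = 0.0115 in edgeR). Araf, a RAF kinase gene, fell (-0.81 with SE 0.22, adjusted p = 0.0193 in edgeR), and the adaptor gene Shc1 rose (0.38 with SE 0.12, adjusted p = 0.0413 in edgeR). Mapk3 lost its call without library 1 of DMSO+VIP or either library 1 or library 3 of OCA+VIP (edgeR adjusted p from 0.069 to 0.0731). Araf lost it without library 3 of DMSO+VIP or the same pair of OCA+VIP libraries (edgeR adjusted p from 0.0857 to 0.106). Shc1 lost it without any 1 library but OCA+VIP library 2 (edgeR adjusted p from 0.091 to 0.173).

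Among 15 genes that ERK induces in many cell types, 14 were tested, 5 rose, 0 fell and 9 did not pass, beside 5.72% of all tested genes that rose. The median log2 fold change was 0.44, beside 0.001 for all tested genes. Like the other lists, this one was chosen with earlier results of these data known, so its count and median are a description. Egr1, Fosb and Fos, which encode immediate early transcription factors, rose with log2 fold changes of 1.55 (SE 0.15), 1.24 (SE 0.16) and 0.92 (SE 0.19). Their edgeR adjusted p was 6.56e-07, 1.16e-05 and 0.00197, and each kept its call without any 1 library. As for Dusp6, the highest Egr1 value was in OCA+VIP library 1, at 330 CPM against 243 and 256 CPM in OCA+VIP libraries 2 and 3 and 85.5 to 106 CPM with DMSO+VIP. The AP-1 gene Fosl1 rose (0.54 with SE 0.14, adjusted p = 0.0146 in edgeR), but 57.2% of its exon bases overlap Ccdc85b on the opposite strand. Maff, a small MAF factor, rose with a log2 fold change of 0.45 (SE 0.15 and adjusted p = 0.048 in edgeR). Fosl1 and Maff lost their calls without any 1 library but OCA+VIP library 2, with edgeR adjusted p from 0.0537 to 0.094 and from 0.0917 to 0.24. Etv4 and Etv5, ETS factors that are induced together with Dusp6 in many tissues and are named here after their values were seen, did not pass. Etv5 had 13.3, 16.4 and 15.8 CPM with DMSO+VIP and 19.0, 29.7 and 28.0 CPM with OCA+VIP (log2 fold change 0.74, SE 0.28). Etv4 was low in all libraries, at 1.31 to 5.53 CPM, and its log2 fold change of 0.94 was imprecise (SE 0.87).

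Of 12 genes for ETS and SRF family factors, through which ERK acts on promoters, 11 were tested, 0 rose, 1 fell and 10 did not pass, a share near the 11.8% called over all tested genes. Their median log2 fold change was 0.14. Ets2 fell from 574 ± 33.0 to 233 ± 55.8 CPM (log2 fold change -1.32 with SE 0.14, adjusted p = 1.37e-06 in edgeR), and kept its call without any 1 library. It was at 584, 537 and 600 CPM with DMSO+VIP and at 183, 293 and 224 CPM with OCA+VIP. Its lowest value was in OCA+VIP library 1, the library with the highest Dusp6 and Egr1.

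**Figure D5:**
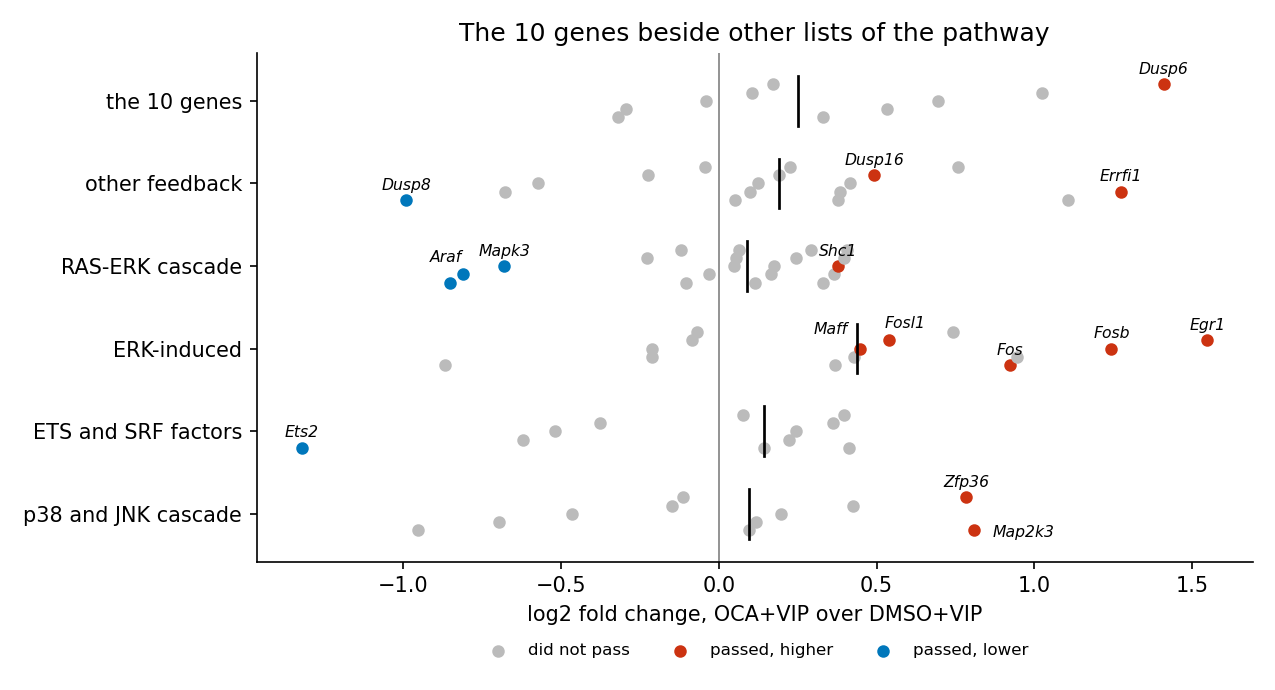
log2 fold change of OCA+VIP over DMSO+VIP (x axis) for the 10 genes and the tested genes of the other lists (rows). Points are genes, coloured by whether they passed the edgeR test, with names for those described in the text, and vertical bars are medians. Dusp6 is at 1.41 with 9 grey points beside it, Errfi1 at 1.27 and Ets2 at -1.32.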

How the data were processed

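Polyadenylated RNA of 6 samples was sequenced. The authors deposited 1 table of expected counts over the exons of each gene, not adjusted for library size, per the file headers, with the exon length of 1 RefSeq transcript per gene. The submitters' processing notes name mm10, STAR, HOMER and DESeq2, with no role or version. Strand use and duplicate removal are not given in the sources used here. Column names gave the group, but which column is which lettered title was left unresolved.

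Rounded counts entered edgeR 4.0.16 (R 4.3.3, limma 3.58.1) with TMM factors, filterByExpr at a minimum count of 10 and total of 15, a two-sided quasi-likelihood F test, and Benjamini-Hochberg adjustment over 11286 genes at 0.05. SE is the log2 fold change divided by the root of F. Levels are CPM of the column total, or these per kilobase of exon. Between 65.4% and 87.5% of counts up to 30 lay within 0.5 of a multiple of 3, and the cause was not tested. The share expected without such steps was not computed. With such steps a count may not equal a read, and the p-values may rest on fewer reads than the counts show. The edgeR fit was tried on simulated counts with planted fold changes. Those counts held no steps of 3, so the trial says nothing about them.

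The genes, lists and markers were chosen with earlier results of these data known. Named genes are the 10, the called genes of each list and the 5 nearest patterns of Dusp6 and Spry4. Of the called genes, 1 of the cascade list is not reported here. Alternatives were RLE or no scaling, other filters, DESeq2 1.42.0, limma-voom, a replicate block, thresholds of 0.01 and 0.1, and each library left out. Counts divided by 6, also thinned, were added after seeing the data. Exon overlaps came from GENCODE M21. Figures were drawn with matplotlib 3.10.9, pandas 2.3.3 and numpy 2.4.6 (Python 3.11.15).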

Additional observations from a re-analysis of the deposited data

How the results depend on the processing

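Dusp6 was called in every alternative run, with a log2 fold change of 1.20 to 1.53. The number of the 10 genes called, 1 in the report, was 2 with scaling to column totals (Dusp4 added). It was also 2 with no filter, with limma-voom and with counts divided by 6 (Spred2 added in each), 5 at a threshold of 0.1, and 1 to 2 with 1 library left out. Directions turned for Ier3 with 1 library left out (range -0.15 to 0.063) and, after thinning, for Spry2 (0.21) and Spred1 (-0.043), none of them called, and the cause was not tested. Over all genes, 1328 were called, 648 at a threshold of 0.01, 583 after thinning and 737 to 1478 with 1 library left out. It was 877 without library 1 of DMSO+VIP, and 737 or 751 without library 1 or library 3 of OCA+VIP. For the cascade list the count of 4 became 1 and 7 at thresholds of 0.01 and 0.1, and 1 to 6 with 1 library left out. For the ERK-induced list the count of 5 became 3 at 0.01 and after thinning, and 3 to 7 with 1 library left out. For the other feedback list the count of 3 became 1 to 2 with 1 library left out. For ETS and SRF factors the count of 1 became 3 at 0.1 and with no filter, 2 with counts divided by 6, after thinning and with the replicate block, and 1 to 2 with 1 library left out. For the p38 and JNK list the count of 2 became 5 at 0.1, 4 with no filter, with limma-voom and with counts divided by 6, and 2 to 4 with 1 library left out. Maff was also lost with RLE scaling (edgeR adjusted p = 0.0536).

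With the replicate block, 1118 genes and 1 of the 10 genes were called, and Shc1 and Maff lost their calls. Numbers of the columns did not pair the libraries: deviations of same-numbered libraries from their group means correlated at -0.0355, -0.0499 and 0.0322. Spry1 is the gene most limited by depth, with 20.5 counts in 1 library, and it had no fit after thinning.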

Other observations

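The p38 and JNK kinases are the other substrates of Dusp1, Dusp8 and Dusp16. Of 12 genes in a list of this cascade, 11 were tested, 2 rose, 0 fell and 9 did not pass, beside 5.72% of all tested genes that rose and 11.8% called in either direction. Their median log2 fold change was 0.10. Map2k3, which encodes the p38-activating kinase MKK3, had 191, 202 and 191 CPM with DMSO+VIP and 356, 334 and 341 CPM with OCA+VIP. The values within each group were close and the groups far apart, with a log2 fold change of 0.81 (SE 0.12 and adjusted p = 8.55e-05 in edgeR). Zfp36, which encodes the RNA-destabilizing protein tristetraprolin, rose from 147 ± 14.0 to 256 ± 8.27 CPM (log2 fold change 0.78 with SE 0.12, adjusted p = 0.000144 in edgeR). Both kept their calls without any 1 library. Mapk14, which encodes p38 alpha and was picked for mention after its value was seen, had a log2 fold change of -0.11 (SE 0.16) and did not pass.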
